A study of Mus musculus with 6 samples.

Results

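The p53 gene Trp53, its inhibitors Mdm2 and Mdm4, and 7 of its core targets were followed in mouse bone marrow cells labelled long-term hematopoietic stem cells. The targets were Cdkn1a, Ccng1, Plk2, Gdf15, Trp53inp1, Zmat3 and Phlda3. These genes are 10 of the 55487 genes in the table, and all 10 passed the filter on low counts. The genes were chosen by symbol, for their place in the p53 pathway, with earlier results of the contrast between carnosine and saline in these libraries known, so their differences are given as descriptions without a p-value. The study treated wild-type mice that had not been irradiated with saline or with carnosine, the dipeptide of beta-alanine and histidine. From each group 3 RNA libraries were made of cells sorted as Lineage-, Sca-1+, c-Kit+, Flk2- and CD34-. The sources used here do not give strain, age, sex, number of mice, dose or duration. Nor do they say whether each library is from a mouse of its own, and p-values then measure only the spread between these libraries, which may be technical.

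The p53 protein is a transcription factor that is made constantly and destroyed constantly. Mdm2 is the ubiquitin ligase that marks it for destruction, its relative Mdm4 binds and silences it, and p53 switches on Mdm2, which closes a feedback loop. DNA damage and other stresses break the loop, after which p53 raises genes that halt the cell cycle, above all Cdkn1a (p21), and genes of cell death and repair. In blood stem cells p53 is known to restrain cycling and to set the response to irradiation. Most control of p53 acts on the protein, which RNA counts do not measure.

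Promoter windows of RefSeq (GRCm38.p6, 250 bases before to 50 after the gene start) were matched by symbol for 8 of the 10 genes, which have 11 windows in all. Zmat3 and Trp53inp1 were not matched. The windows were searched on both strands for the p53 decamer, the unit of which a pair forms a p53 response element, with no mismatch. It was found in windows of 4 genes, Cdkn1a, Mdm2, Ccng1 and Trp53 itself, and in 8.36% of all 32851 windows of the same length. The bases before the start of these 4 are shown in lower case, with the decamer in capitals, because they place the motif beside the genes whose RNA is described here. Plk2 is added, with the cyclic AMP response element TGACGTCA in capitals, which 1.79% of all windows hold. Coordinates are those of the bases printed. Cdkn1a, plus strand, chr17:29090729-29090978; Mdm2, minus strand, chr10:117710759-117711008; Ccng1, minus strand, chr11:40755287-40755536; Trp53, plus strand, chr11:69580109-69580358; Plk2, plus strand, chr13:110394794-110395043.
Cdkn1a: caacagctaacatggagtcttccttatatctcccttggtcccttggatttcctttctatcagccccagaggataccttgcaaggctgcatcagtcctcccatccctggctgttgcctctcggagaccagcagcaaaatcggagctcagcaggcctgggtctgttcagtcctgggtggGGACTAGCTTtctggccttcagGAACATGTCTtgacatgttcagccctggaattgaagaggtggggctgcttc
Mdm2: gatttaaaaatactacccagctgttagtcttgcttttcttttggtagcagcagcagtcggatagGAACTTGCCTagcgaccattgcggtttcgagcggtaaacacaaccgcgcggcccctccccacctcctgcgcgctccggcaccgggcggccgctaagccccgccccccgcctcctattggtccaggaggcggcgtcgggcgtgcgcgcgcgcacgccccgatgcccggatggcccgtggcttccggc
Ccng1: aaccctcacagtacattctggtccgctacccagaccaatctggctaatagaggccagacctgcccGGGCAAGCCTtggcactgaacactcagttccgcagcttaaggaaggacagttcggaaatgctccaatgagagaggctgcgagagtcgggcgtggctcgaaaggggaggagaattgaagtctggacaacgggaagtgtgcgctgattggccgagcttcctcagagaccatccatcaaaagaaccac
Trp53: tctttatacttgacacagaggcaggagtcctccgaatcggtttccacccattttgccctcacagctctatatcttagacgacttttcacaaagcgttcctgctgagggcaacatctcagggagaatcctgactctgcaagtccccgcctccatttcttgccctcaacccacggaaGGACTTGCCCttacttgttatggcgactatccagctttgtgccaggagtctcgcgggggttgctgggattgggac
Plk2: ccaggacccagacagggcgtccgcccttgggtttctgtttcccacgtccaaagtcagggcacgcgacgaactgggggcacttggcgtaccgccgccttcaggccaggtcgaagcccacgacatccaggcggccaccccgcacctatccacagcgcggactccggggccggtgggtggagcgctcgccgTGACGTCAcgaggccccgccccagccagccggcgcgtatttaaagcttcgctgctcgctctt

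The printed window of Cdkn1a held the decamer at 2 places, from 73 to 64 and from 51 to 42 bases before its start. Another window of Cdkn1a, at chr17:29093519-29093818, belongs to a start farther downstream and held no decamer. In Mdm2 the decamer lay from 186 to 177 bases before the start, in Ccng1 from 185 to 176, and in Trp53 from 75 to 66. The element of Plk2 lay from 62 to 55 bases before the start. The windows of Plk2, Gdf15, Phlda3 and Mdm4 had no p53 decamer, which says only that these letters are not in these windows. Of the other motifs searched, the AP-1 site TGANTCA (7.81% of all windows) was found in Mdm4, and the E box CACGTG (7.15%) in Gdf15 and Trp53. The TATA motif TATAAA (13.6%) was found in Trp53 on the opposite strand, from 248 to 243 bases before the start, at the far end of the window. The CCAAT box (37.4%) was found in Gdf15, Mdm2, Ccng1 and Trp53. The GC box GGGCGG (35.7%) was found in Phlda3, Mdm2 and Plk2, and for Cdkn1a only in the window not printed. A match describes the sequence and does not show that a factor binds there.

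The libraries held 10304539 to 13251332 counts. Per gene, the counts of 2 libraries of the same group differed by 1.78 to 2.04 times what sampling alone gives (median chi-square over its expected median), and those of 2 libraries of different groups by 5.03 to 5.58 times, so no library was a copy of another. All 11 marker genes of long-term stem cells were detected, among them Kit at 522.5 to 554.8 CPM (counts scaled to the size of the library) and Procr at 30.9 to 37.8 CPM. Cd34 and Flt3, whose proteins the gate excludes, were read at 835.8 to 883.9 and 763.7 to 830.5 CPM. Cd48, grouped with them in the marker lists although the gate does not name it, was at 66.0 to 73.4 CPM. As mean FPKM (read fragments scaled to gene length and library size), Kit was at 42.14 in saline and 40.71 in carnosine. Above it stood Flt3 (132.4 and 124.9), Cd34 (87.15 and 87.22) and the progenitor genes Dntt (138.7 and 114.3) and Mpo (107.1 and 63.27). Cd48 and the other progenitor genes listed were below Kit. The purity of the sorted cells was not tested. Other marker lists moved with treatment. Of 7 multipotent and myeloid progenitor genes 6 were lower in carnosine (summed level 1139 to 1159 CPM in saline, 787.6 to 806.8 in carnosine), and of 7 erythroid genes 4 were higher (55.9 to 65.0 against 140.8 to 146.1 CPM). The 7 B cell genes summed to 135.5 to 204.0 CPM in saline and 333.4 to 578.5 in carnosine, with 1 higher and 2 lower of 6 tested. No marker of these 3 lists was at 0 in all libraries, and their part in the results below was not tested. In bulk RNA, fewer cells of a type and less RNA per cell cannot be told apart.

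Trp53 RNA was at 181.4 ± 4.10 CPM in saline and 182.2 ± 10.3 CPM in carnosine (SD, n = 3). Of its targets, Plk2 and Trp53inp1 were higher in carnosine, and Gdf15 and Mdm2 were lower. In the fit over all genes (edgeR quasi-likelihood test, adjusted p under 0.05) these 4 of 10 were called, 2 higher and 2 lower. Of all 15298 genes tested 17.9% were called, 9.51% higher and 8.39% lower. The CPM of the groups did not overlap for 7 of the 10, as for 38.7% of all genes tested. Since the choice of the 10 used this contrast, nothing is read from these counts.

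**Figure D1:**
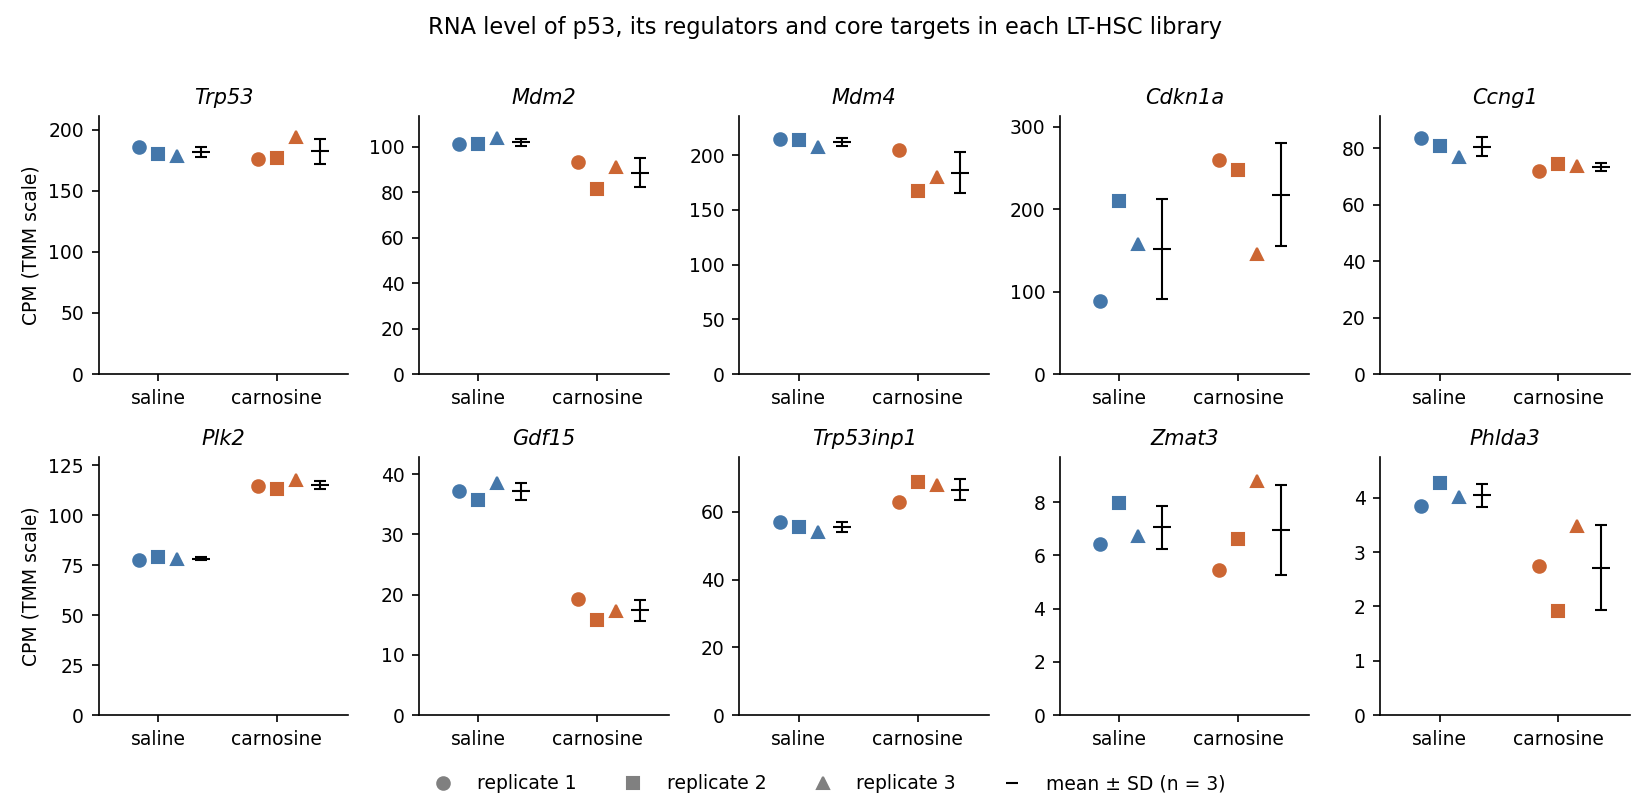
Level of each of the 10 genes in each library, in CPM on a linear axis from 0 for saline (blue) and carnosine (orange), with marker shapes for replicate numbers and black bars for mean ± SD (n = 3). Gdf15 lies between 15.8 and 19.2 CPM in carnosine and between 35.7 and 38.4 in saline, Plk2 is higher in carnosine, and the points of Cdkn1a are spread widely in both groups.

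Trp53 (ENSMUSG00000059552, GRCm38 chromosome 11, 69580359 to 69591873) was at 186.0, 180.1 and 178.1 CPM in the saline libraries and at 176.0, 176.5 and 194.1 CPM in the carnosine libraries. The groups overlapped, and the highest and the lowest library were both of carnosine. The log2 fold change, carnosine against saline as in all that follow, was 0.0071 with a standard error (SE) of 0.046 and a 95% interval from -0.0996 to 0.11. A processed pseudogene on chromosome 17, Trp53-ps, held 45 to 77 counts per library beside 1835 to 2561 for Trp53, and reads could be shared between them. Wrap53, which is transcribed away from Trp53 on the opposite strand and encodes a telomerase and Cajal body protein, was at 19.96 ± 0.38 CPM in saline and 17.6 ± 0.18 in carnosine (SD, n = 3; edgeR adjusted p = 0.105).

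Mdm2 (ENSMUSG00000020184, chromosome 10, 117688875 to 117710758), the ligase, was read at 101.1, 101.0 and 103.8 CPM in saline. In carnosine it was at 93.4, 81.4 and 90.8 CPM. All 3 carnosine libraries lay below all saline libraries, and the carnosine libraries were the more spread out (SD 6.32 against 1.58). The log2 fold change was -0.20 (SE 0.057). It ranged from -0.24 to -0.15 with 1 library left out, and among these 6 fits it was called only without carnosine replicate 1.

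Mdm4 (ENSMUSG00000054387, chromosome 1, 132959484 to 133030561), which silences p53 without destroying it, was at 214.5, 213.7 and 207.7 CPM in saline and at 204.5, 167.2 and 180.6 CPM in carnosine. The groups did not overlap, but carnosine replicate 1 was close to the lowest saline library. The log2 fold change was -0.20 (SE 0.068), close to that of Mdm2, and it was not called. Without carnosine replicate 1 it was -0.29 and was called, and without carnosine replicate 2 it was -0.14. The pseudogene Mdm4-ps on chromosome X was at 6.22 to 7.02 CPM in saline and 3.26 to 4.81 in carnosine, and reads could be shared with it. Gm29257, an annotated gene inside Mdm4 on the other strand, was at 6.39 to 7.96 CPM. Whether either holds reads of Mdm4 was not tested.

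The balance of inhibitor to p53 RNA was taken within each library as a ratio of FPKM (read fragments scaled to gene length and library size). Mdm2 to Trp53 was 0.394, 0.407 and 0.423 in saline and 0.385, 0.334 and 0.339 in carnosine (0.408 ± 0.014 against 0.353 ± 0.028, SD, n = 3). These ratios did not overlap, although carnosine replicate 1 was close to saline replicate 1. Mdm4 to Mdm2 was 0.836 ± 0.027 in saline and 0.835 ± 0.041 in carnosine, and these ratios overlapped. Mdm4 to Trp53 was 0.341 ± 0.0049 in saline and 0.296 ± 0.038 in carnosine and overlapped as well. The size of each ratio depends on the gene lengths in the deposited FPKM, which are described below. The comparison of a ratio between libraries does not.

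Cdkn1a (ENSMUSG00000023067, chromosome 17, 29090976 to 29100727) encodes p21, the inhibitor of cyclin-dependent kinases through which p53 arrests cells. It was at 88.0, 209.5 and 157.9 CPM in saline and at 259.4, 247.1 and 145.7 CPM in carnosine. The groups overlapped: the lowest carnosine library was below 2 of the saline libraries. The mean was higher in carnosine (217.4 ± 62.4 against 151.8 ± 61.0 CPM, SD, n = 3), with a log2 fold change of 0.52 (SE 0.32, 95% interval -0.23 to 1.27) that was not called. It moved between 0.25 (without saline replicate 1) and 0.82 (without saline replicate 2).

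The spread of Cdkn1a between libraries of the same group stood out among the 10 genes. Its highest library was 2.38 times its lowest in saline and 1.78 times in carnosine, against 1.04 and 1.10 times for Trp53. As an SD of log2 CPM within groups it was 0.56, where the median of the 10746 genes with a mean log2 CPM over 3 was 0.084. Of those genes 1.54% had a spread as large. Its counts ran from 915 to 3128 per library. The nearest protein-coding genes on either side varied less: Srsf3 by 1.14 times in saline and 1.11 in carnosine, and Rab44 by 1.09 and 1.14 times. The long noncoding RNA Trp53cor1, which lies between Srsf3 and Cdkn1a, varied by 1.47 and 1.27 times at 21 to 49 counts per library. A transcript within Cdkn1a on the other strand, 1700023B13Rik, held 5 to 12 counts. What sets the spread was not tested.

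**Figure D2:**
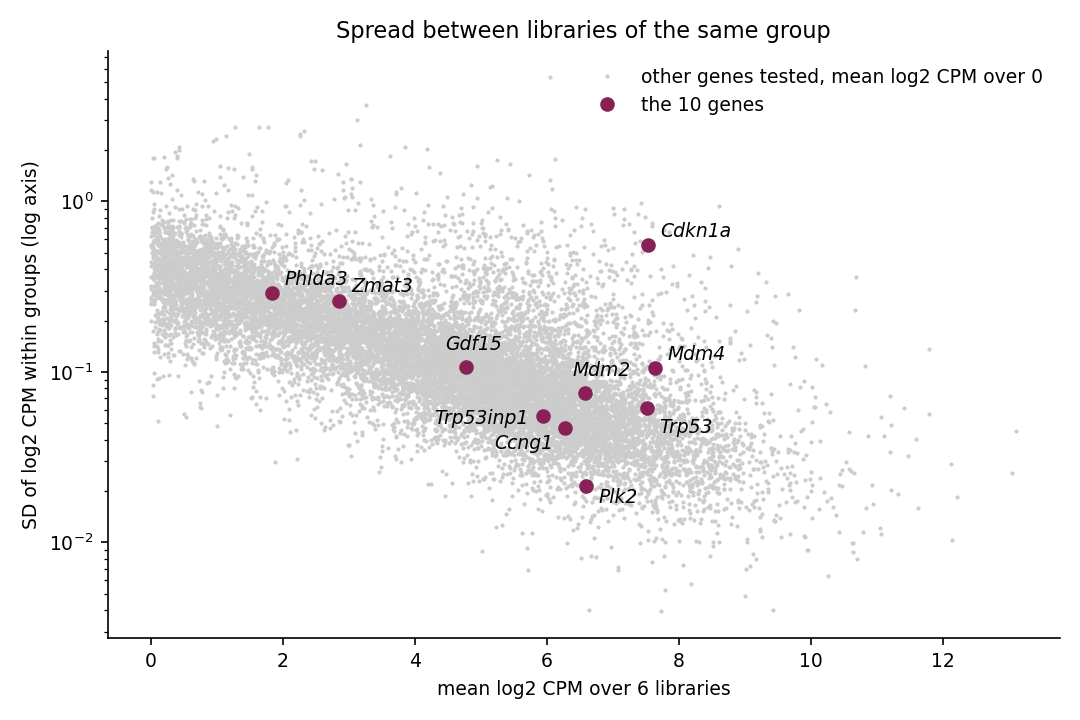
SD of log2 CPM within groups (log axis) against mean log2 CPM over the 6 libraries, for the genes tested with a mean log2 CPM over 0 (grey) and the 10 genes (purple). Cdkn1a, at 0.56, lies above most genes of its level, and Plk2, at 0.021, near the lower edge.

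Ccng1 (ENSMUSG00000020326, chromosome 11, 40748552 to 40755311), cyclin G1, recruits a phosphatase that activates Mdm2. It was at 83.8, 80.8 and 77.0 CPM in saline and 71.9, 74.4 and 73.8 CPM in carnosine. All carnosine libraries were lower, by little: the log2 fold change was -0.13 (SE 0.047) and was not called. With 1 library left out it stayed between -0.17 and -0.10.

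Plk2 (ENSMUSG00000021701, chromosome 13, 110395046 to 110400844) is a polo-like kinase of centriole duplication and of the response to stress and serum. Its levels were 77.6, 79.3 and 78.02 CPM in saline and 114.4, 113.2 and 117.3 CPM in carnosine. The groups were far apart relative to their spread, and Plk2 was the least variable of the 10 within groups (SD of log2 CPM 0.021). The level was 1.47-fold higher in carnosine, a log2 fold change of 0.55 (SE 0.037), and lay between 0.54 and 0.57 with any 1 library left out. It was called in all 6 of those fits and in all 10 other settings tried.

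Gdf15 (ENSMUSG00000038508, chromosome 8, 70629393 to 70632456) is a secreted cytokine of the TGF-beta family that rises in stressed cells. It is a target of p53 and also of the stress factors ATF4 and CHOP, and erythroid precursors are known to make it. Its levels were 37.1, 35.7 and 38.4 CPM in saline and 19.2, 15.8 and 17.3 CPM in carnosine. Every carnosine library was far below every saline library, and the level was 2.13-fold lower (log2 fold change -1.09, SE 0.086). The range with 1 library left out was -1.17 to -1.02. This was the largest difference among the 10 genes in that fit. The summed erythroid list above was higher in carnosine, and the summed multipotent and myeloid progenitor list was lower. The share of Gdf15 RNA from any cell type was not tested.

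Trp53inp1 (ENSMUSG00000028211, chromosome 4, 11156431 to 11174379) encodes a stress protein that promotes p53 phosphorylation and acts in autophagy. It was at 57.1, 55.7 and 54.1 CPM in saline and 63.0, 68.7 and 68.0 CPM in carnosine. All carnosine libraries were higher, and the log2 fold change was 0.26 (SE 0.054). It was called with all libraries, and of the 6 fits without 1 library it was called in 2, those without saline replicate 1 (0.28) and without carnosine replicate 1 (0.30).

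The remaining targets were rare. Zmat3 (ENSMUSG00000027663, chromosome 3, 32334792 to 32366014), an RNA-binding protein, was at 6.45, 7.96 and 6.75 CPM in saline and 5.47, 6.64 and 8.79 CPM in carnosine. These ranges were intermixed, with a log2 fold change of -0.0097 (SE 0.19, 95% interval -0.46 to 0.44). Phlda3 (ENSMUSG00000041801, chromosome 1, 135766119 to 135769136), which restrains the kinase Akt, was read at 3.85, 4.27 and 4.02 CPM in saline and 2.74, 1.92 and 3.49 CPM in carnosine. All carnosine libraries were lower, but these levels rest on 40 to 53 counts per library in saline and 20 to 46 in carnosine. Its log2 fold change was -0.55 (SE 0.22), was not called, and ran from -0.78 to -0.37 with 1 library left out.

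**Figure D3:**
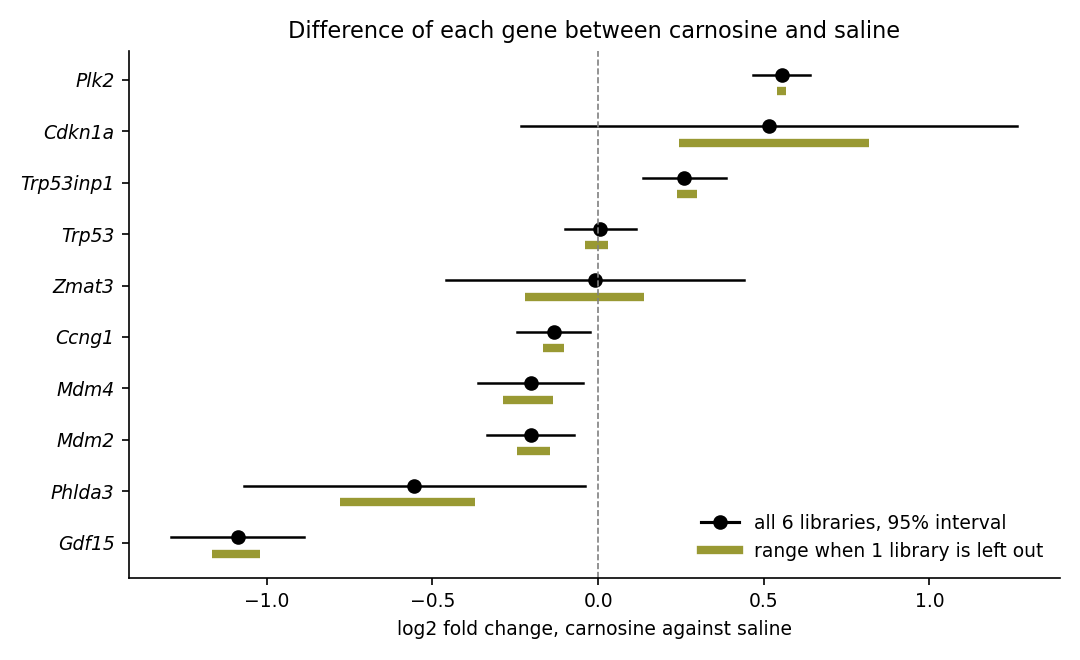
Log2 fold change of each of the 10 genes, carnosine against saline, with its 95% interval from the fit over all genes (black) and the range over the 6 fits with 1 library left out (olive). Gdf15 at -1.09 and Plk2 at 0.55 lie farthest from 0 with short intervals, while Cdkn1a at 0.52 has an interval from -0.23 to 1.27.

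Levels of different genes can be set side by side only per length. In saline the FPKM of the authors' table ranked Trp53 (25.5 ± 0.61) and Cdkn1a (23.0 ± 9.21) first, followed by Ccng1 (18.7 ± 0.82) and Gdf15 (12.7 ± 0.46; SD, n = 3 for each). Cdkn1a overlapped both Trp53 and Ccng1. Plk2 (10.6 ± 0.11) and Mdm2 (10.4 ± 0.15) overlapped each other, and Mdm4 (8.70 ± 0.16) and Trp53inp1 (7.72 ± 0.22) came next, without overlap. Phlda3 (2.02 ± 0.11) and Zmat3 (0.371 ± 0.042) were lowest. In carnosine Cdkn1a (32.8 ± 9.41) had the highest mean, overlapping Trp53 (25.5 ± 1.44). Plk2 stood at 15.5 ± 0.28, below Ccng1 at 16.9 ± 0.30, and Trp53inp1 (9.21 ± 0.43) overlapped Mdm2 (8.996 ± 0.64). Gdf15 moved from place 4 to place 8, at 5.93 ± 0.59, below Mdm4 (7.52 ± 0.77) and above Phlda3 (1.35 ± 0.39) and Zmat3 (0.365 ± 0.088).

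The length in the deposited FPKM bears on this order. For each of the 10 genes it equals the summed length of all distinct exons in GENCODE M21, in which overlapping exons of different transcripts are counted again: 7108 bases for Trp53, whose merged exons cover 4045, and 24367 for Mdm4, whose merged exons cover 14798. Per kilobase of merged exons, a rescaling chosen after seeing the data, Trp53 was at 44.8 and Cdkn1a at 42.7 in saline, still ahead of Ccng1 at 22.9. Mdm2 (20.1) then stood beside Gdf15 (20.03) and above Plk2 (17.4). Per kilobase of the longest protein-coding transcript, Mdm2 (32.4) and Mdm4 (29.8) took places 3 and 4 in saline and Ccng1 (22.9) place 7. In carnosine, Plk2 stood above Ccng1 by merged exons (25.5 and 20.8) and by the longest protein-coding transcript (40.9 and 20.8). Mdm2 likewise stood above Trp53inp1 by merged exons (17.3 and 10.2) and by that transcript (28.0 and 12.3). The lengths cancel in any comparison of 1 gene between libraries.

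**Figure D4:**
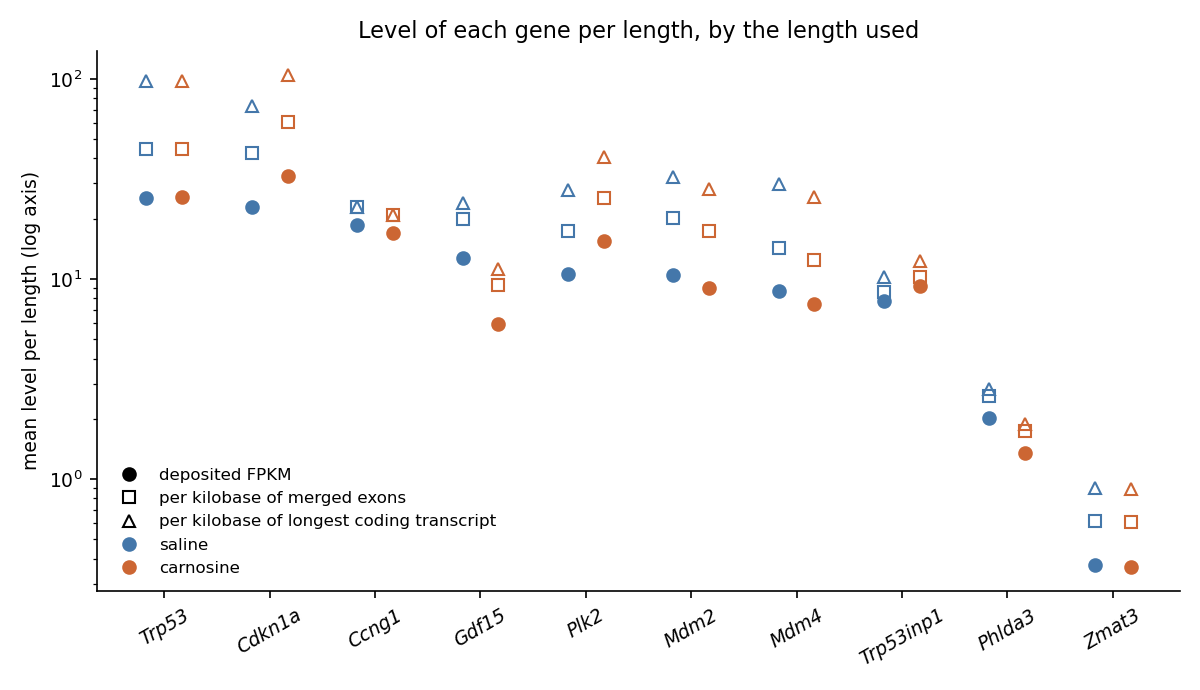
Mean level per length of the 10 genes on a log axis in saline (blue) and carnosine (orange), as deposited FPKM (filled circles), per kilobase of merged exons (squares) and per kilobase of the longest protein-coding transcript (triangles). Trp53 and Cdkn1a are highest and Phlda3 and Zmat3 lowest by each length, while the order of the middle genes depends on the length used.

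Around these genes, 95 other genes of the p53 pathway and of linked responses were in the table, of which 89 were tested. Of these 26 were called (29.2%, beside 17.9% of all genes tested), 15 higher and 11 lower in carnosine. The balance turned with DESeq2, which called 5 higher and 10 lower. Their median log2 fold change was 0.0053, beside 0.00093 for all genes tested. Among 39 tested targets of p53 other than the 10 genes, 4 were called higher and 5 lower (23.1%), with a median of -0.00079. The counts of each list stand beside 9.51% called higher and 8.39% called lower over all genes tested, and since the lists were made with earlier results known, nothing particular to a list is read from them. Adjusted p-values below are those of edgeR over all genes tested.

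Among 14 tested activators and upstream kinases of p53, 2 fell and 1 rose (median -0.025). The acetyltransferases Ep300 (268.8 ± 4.56 to 229.2 ± 10.0 CPM, SD, n = 3; adjusted p = 0.00631) and Crebbp (log2 fold change -0.21, adjusted p = 0.00579), which acetylate p53 and act as its coactivators, fell. Rpl5, a ribosomal protein that binds Mdm2 when ribosome assembly fails, rose by 0.20 (adjusted p = 0.0112). These 3 calls held with each library left out. Of 12 tested inhibitors and ubiquitin cycle genes, Kmt5a, which methylates p53, rose by 0.19 (adjusted p = 0.0322), a call that with 1 library left out held only without carnosine replicate 2. The deacetylase Sirt1 (-0.29, adjusted p = 0.0912), the ligase Huwe1 (-0.058, adjusted p = 0.156) and the ligase Topors (-0.078, adjusted p = 0.247) were not called. The paralogs Trp63 and Trp73 were all but absent, with 2 and 9 counts over the saline libraries and 1 and 3 over the carnosine libraries.

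Targets of cell cycle arrest included 1 call among 9 tested (median -0.096). Btg2, an antiproliferative cofactor of mRNA decay, fell from 400.6 ± 5.30 to 267.4 ± 2.16 CPM (SD, n = 3; adjusted p = 9.26e-06), and the call held with each library left out. Btg2 is also an immediate early gene. Gadd45a (-0.47, adjusted p = 0.104), which acts in arrest and repair, and the kinase Plk3 (-0.096, adjusted p = 0.391) were not called. Among 12 tested apoptosis targets 1 fell and 2 rose (median 0.026). Bbc3 (PUMA), the BH3-only protein that carries much of the p53 death signal in blood cells, fell from 57.6 ± 2.49 to 30.7 ± 3.62 CPM (SD, n = 3; adjusted p = 0.000705), also with each library left out. The caspase activator Apaf1 (0.19, adjusted p = 0.0329) and Ei24, a protein of the endoplasmic reticulum (0.17, adjusted p = 0.0453), rose. With 1 library left out the call of Apaf1 held only without carnosine replicate 1 (adjusted p up to 0.095), and that of Ei24 in no fit (0.0809 to 0.125). Bax, the pore-forming effector, was at 38.8 ± 2.89 and 39.2 ± 2.64 CPM (adjusted p = 0.929).

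Repair and metabolism targets split, with 2 higher and 2 lower of 16 tested (median -0.080). Prkab1, a subunit of AMP-activated kinase, fell by 0.31 (adjusted p = 0.00805) in every fit with 1 library left out, and the damage sensor Xpc fell by 0.17 (adjusted p = 0.0164). Ddit4, which restrains mTOR, rose by 0.24 (adjusted p = 0.0265). Gls2, a glutaminase, rose from 19 counts over the saline libraries to 61 over the carnosine libraries (adjusted p = 0.0265). The call of Xpc was lost without saline replicate 1, carnosine replicate 2 or carnosine replicate 3 (adjusted p up to 0.0599). That of Ddit4 was lost without saline replicates 2 or 3 or carnosine replicates 1 or 3 (up to 0.083), and that of Gls2 without saline replicates 1 or 3 or carnosine replicates 2 or 3 (up to 0.0924).

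Both targets described in the quiescence of blood stem cells were measured. The repressor Gfi1 fell from 46.3 ± 3.56 to 37.1 ± 2.49 CPM (SD, n = 3; adjusted p = 0.0305), a call lost without saline replicates 2 or 3 or carnosine replicates 1 or 3 (up to 0.1). Necdin (Ndn), a growth suppressor, was at 8.66 ± 1.34 and 9.59 ± 1.89 CPM (adjusted p = 0.575). Among noncoding RNAs, the paraspeckle RNA Neat1 fell from 142.3 ± 29.4 to 99.6 ± 12.2 CPM (adjusted p = 0.0499), and the call was lost with any 1 library left out (adjusted p 0.0547 to 0.139). Trp53cor1 (lincRNA-p21), which lies upstream of Cdkn1a, was at 3.73 ± 0.86 CPM in saline and 2.29 ± 0.28 in carnosine (adjusted p = 0.0665). Its 3 carnosine libraries were below all saline libraries, whereas the libraries of Cdkn1a overlapped. Pvt1 was at 2.22 ± 1.03 and 2.52 ± 0.18 CPM (adjusted p = 0.754), and Meg3 had 17 counts over the saline libraries and 7 over the carnosine libraries.

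Of 12 tested genes that p53 lowers indirectly, through p21 and the DREAM repressor complex, 7 were called higher, 0 were called lower and 5 were not called (median 0.27), beside 9.51% called higher over all genes tested. Most of these genes act in mitosis, and higher levels of mitotic genes in these libraries were known when the list was made, so the list is described without p-values and nothing is read from its count. Top2a, which untangles sister chromatids, was at 671.6 ± 3.12 CPM in saline and 828.7 ± 7.82 in carnosine (SD, n = 3). The cyclin Ccna2 was at 115.7 ± 2.24 and 161.2 ± 8.15 CPM, and the cyclin Ccnb1 at 27.6 ± 1.52 and 37.8 ± 1.999 CPM (SD, n = 3). Cdkn1a itself had a log2 fold change of 0.52 in the same libraries, with a 95% interval from -0.23 to 1.27, and was not called.

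The stress pathway of ATF4 and CHOP, which also drives Gdf15, had 3 genes lower and 2 higher of 8 tested (median -0.098). The factor Atf3 fell from 301.5 ± 26.9 to 147.5 ± 22.4 CPM (SD, n = 3; adjusted p = 0.000953), with each library left out too. CHOP itself, Ddit3, fell by 0.42 (adjusted p = 0.0184), a call lost without saline replicates 1 or 2 or carnosine replicate 1 (up to 0.0612). Chac1, which degrades glutathione, rose from 10 to 80 counts over the libraries of a group (adjusted p = 0.00413). Named after their values were seen, the phosphatase subunit Ppp1r15a fell by 0.39 (adjusted p = 0.0204) and the asparagine synthetase Asns rose by 0.50 (adjusted p = 0.0258). Atf4 itself was at 338.0 ± 47.5 CPM in saline and 331.7 ± 75.6 in carnosine (SD, n = 3; adjusted p = 0.927). Trib3 (-0.044, adjusted p = 0.882) and Atf5 (-0.15, adjusted p = 0.569) were not called either.

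**Figure D5:**
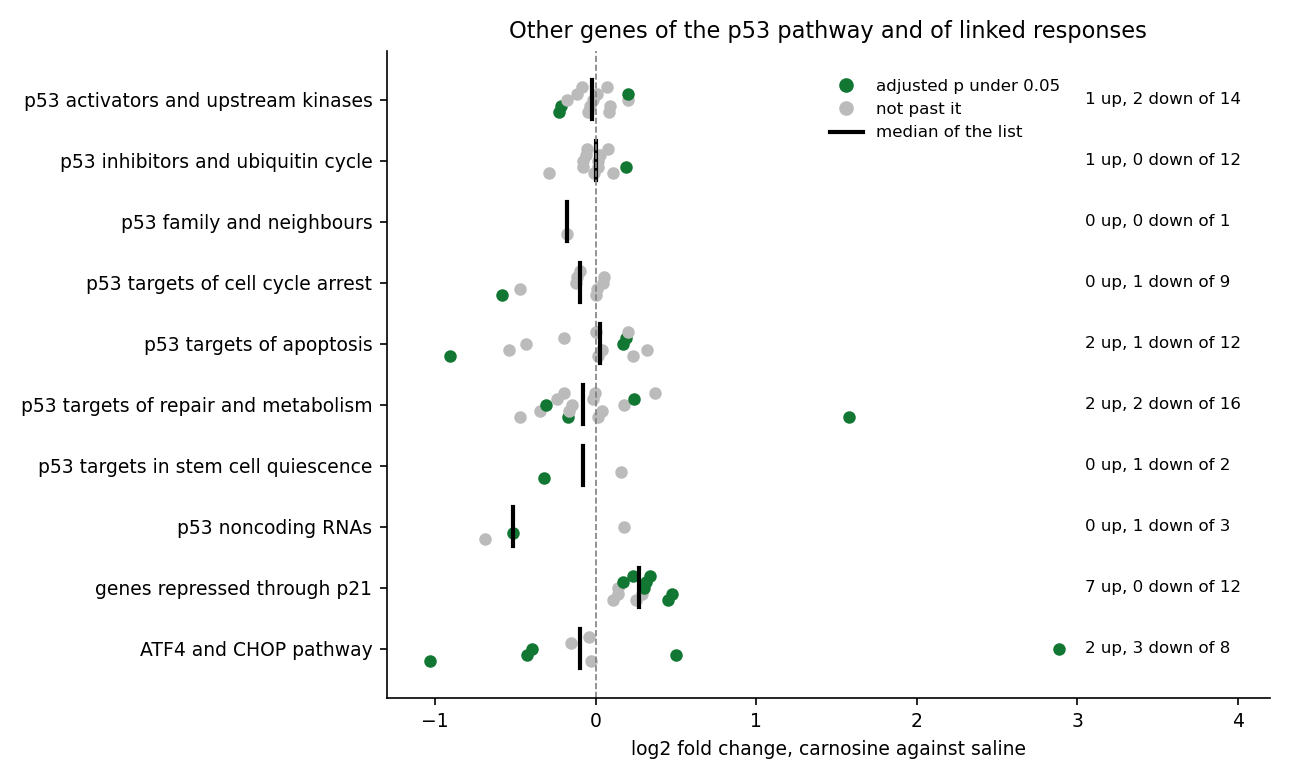
Log2 fold change, carnosine against saline, of each tested gene in the 10 lists around p53 (points; green where edgeR's adjusted p is under 0.05), with the list's median as a black bar and counts at the right. The list of genes repressed through p21 has all 12 points above 0 and a median of 0.27, and the lists of p53 targets lie on both sides of 0.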

How the data were processed

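RNA was measured in 6 libraries, 3 of the saline and 3 of the carnosine group. Per the labels' protocols, poly-A RNA with an integrity number above 7 was made into stranded paired-end libraries. Tools in the submitters' processing notes are HISAT2, StringTie, edgeR and CASAVA 1.8, and the build is GRCm38, with no role stated for each tool. Not given in the sources used here: strand setting, annotation release and handling of reads with several matches. The authors deposited raw counts and FPKM per gene and library, per the file headers.

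Counts were used as deposited, with TMM scaling (factors 0.998 to 1.003), filterByExpr (15298 of 55487 genes kept) and the two-sided quasi-likelihood test of edgeR 4.0.16 in R 4.3.3, Benjamini-Hochberg adjusted over all genes kept, threshold 0.05. CPM are on the TMM scale. Depth gave 3 counts, the limit for a count of 0, a value of 0.226 to 0.291 CPM, and such limits cover counting error only. The genes and lists were chosen with earlier results of these data known. Named from each list were the 3 genes with the smallest p and the gene with the highest FPKM, and all genes of lists of 4 or fewer. Ddit3 has 2 identifiers, and the one with more counts was used. For levels per length, lengths of merged exons and of the longest protein-coding transcript were added after seeing the data. Alternatives were DESeq2 1.42.0, limma-voom and limma-trend (limma 3.58.1), other scalings and filters, a replicate block, and leaving out each library.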

Additional observations from a re-analysis of the deposited data

How the results depend on the processing

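Across the 10 other settings with all 6 libraries, Gdf15 (log2 fold change -1.10 to -0.98) and Plk2 (0.51 to 0.57) kept direction and call. Trp53inp1 was called in 9 of them and Mdm2 in 5. Ccng1, Mdm4, Cdkn1a, Phlda3, Trp53 and Zmat3 were called in none. Over all genes, 1455 were higher and 1283 lower. DESeq2 gave 773 and 775, and fits with 1 library left out gave 932 to 1009 and 801 to 883. Of the other pathway genes 15 were higher and 11 lower. DESeq2 called 5 higher and 10 lower, and fits with 1 library left out called 7 to 10 higher and 7 to 9 lower. Of the 10 genes 2 were called higher and 2 lower. With 1 library left out 1 to 2 were higher and 1 to 3 lower, and only 1 was lower with DESeq2, with no filter on low counts, and with limma-trend on FPKM at pseudocounts of 1 or 0.1 (log2 of FPKM plus the pseudocount). Fewer libraries leave fewer degrees of freedom, and the cause of the other changes was not tested. Over settings and left-out libraries, 65 values of the other named genes lost their call, 2 gained one and 411 did neither, and 0 called values changed sign.

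Replicate numbers are shared between the groups. Deviations of same-numbered libraries from their group means correlated at -0.046, -0.15 and 0.094 across genes, and 1 of the 6 libraries, saline replicate 3, correlated best with its own number. The labels tie the numbers to no shared mouse, litter or day, so they were not taken to pair the libraries. With a replicate block 946 genes were higher and 810 lower, 7 of the other pathway genes were higher and 11 lower, and 1 of the 10 genes was higher and 1 lower. Depth limits Phlda3 and Zmat3 among the 10 genes, and 6 of the other pathway genes were below the filter on low counts.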
